A study of Mus musculus with 15 samples.

Results

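The genes described here are 4 transcription factors of the myeloid lineages, Spi1, Cebpa, Cebpb and Gfi1, taken by name from a table of 12798 genes. All 4 were in the table, and all 4 passed the filter on low values that left 12572 genes for testing. They were followed in 15 bulk RNA-seq libraries of progenitor cells sorted from the bone marrow of C57BL/6 mice. ALP_WT (n = 3) is the all-lymphoid progenitor, a Lin- Kit+ 2B4+ cell without a4b7 and with high Flt3 and IL-7Ra, from mice of genotype Tcf7EGFP/+. sEILP_WT (n = 2) and cEILP_WT (n = 3) are early progenitors of innate lymphoid cells (ILCs) from Tcf7GFP Zbtb16GFP reporter mice. Both were sorted as a4b7+ Tcf7+ Thy1- cells, sEILP_WT as Zbtb16low Flt3high and cEILP_WT as Zbtb16high Flt3low. ILCP_WT (n = 2) is the Thy1+ IL-7Ra+ ILC progenitor, again from Tcf7EGFP/+ mice. EILP_KO (n = 2) holds the whole a4b7+ Tcf7+ Thy1- gate from Tcf7EGFPnull/- mice, and EILP_WT (n = 3) the same gate from Tcf7EGFPnull/+ mice, so that EILP_WT cells still carried 1 null allele. Genotype and stage cannot be told apart where ALP_WT or ILCP_WT is set against sEILP_WT, cEILP_WT, EILP_WT or EILP_KO, since these 4 groups come from other Tcf7 or Zbtb16 alleles. The labels give no age and do not say that replicates came from separate mice, so each p-value reflects spread that may be technical.

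Spi1 encodes PU.1, an ETS-family factor that is needed for macrophages, granulocytes and B cells and whose level helps to set the choice between myeloid and lymphoid fates. Cebpa encodes C/EBP alpha, a basic leucine zipper factor that starts the granulocyte and monocyte programme and that works together with PU.1 on many myeloid genes. Cebpb encodes C/EBP beta, a relative of C/EBP alpha best known for emergency granulocyte production and inflammatory responses. Gfi1 encodes a zinc-finger repressor that favours neutrophils over monocytes, restrains PU.1 and also acts in lymphoid precursors and in type 2 ILCs. Early ILC progenitors lie on the lymphoid branch, and the loss of myeloid potential is part of lymphoid commitment.

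Values are the deposited log2 values, whose linear levels sum to 998697 to 999292 in a library, and each library has a lowest value, between -4.83 and -4.41, that 747 to 2575 of its genes share. A gene with that value is said below to be at the lowest value. Most genes were there in EILP_WT replicate 3 (2575) and the ILCP_WT libraries (2124 and 2224), against 1910 or fewer in the 12 others. The part of this in the results for ILCP_WT and EILP_WT was not tested. Differences are estimates of a limma model with group and batch as terms, with their standard error (SE). They can therefore depart from the plain difference of group means, since sEILP_WT lies in batch 1 only and the other groups are spread over both batches. A gene counts as changed at a Benjamini-Hochberg adjusted p under 0.05 over all genes tested. Overlap between the libraries of groups is given as a description only, since the share of all genes without overlap was not counted. The targeted gene Tcf7 was between 6.97 and 7.65 in EILP_KO and between 9.89 and 11.14 in EILP_WT (log2 difference -3.34, SE 0.32, limma adjusted p = 0.00151). All 7 genes of a lymphoid and ILC progenitor list (Tcf7, Gata3, Id2, Tox, Nfil3, Il7r and Zbtb16) were in the table. Tcf7, Il7r and Zbtb16 also define the sort gates and Tcf7 is the deleted gene, so the order of the groups in this list is partly set by the sort and the genotype. Their summed linear level was 309 to 589 in ALP_WT, 2447 to 2452 in sEILP_WT, 3494 to 4510 in cEILP_WT and 5464 to 7153 in ILCP_WT. It was 1697 to 1761 in EILP_KO and 2683 to 4601 in EILP_WT.

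Spi1 lay between 5.68 and 7.72 from the all-lymphoid progenitor to the early ILC progenitors and was lower in ILCP_WT. The ALP_WT libraries had 7.33, 7.63 and 7.52, those of sEILP_WT 7.72 and 7.68, those of cEILP_WT 6.79, 7.52 and 5.68, and those of ILCP_WT 4.43 and -0.14. Both ILCP_WT libraries lay below every other library, and the 2 of them were 4.57 log2 units apart. The ALP_WT and sEILP_WT libraries were close together, while cEILP_WT spread over 1.84 log2 units with its batch 2 library lowest. In the unsplit gate Spi1 was 8.28 and 8.14 in EILP_KO and 8.06, 7.69 and 6.74 in EILP_WT. The order of the group means was EILP_KO (8.21 ± 0.10), sEILP_WT (7.70 ± 0.02), EILP_WT (7.50 ± 0.68), ALP_WT (7.49 ± 0.15), cEILP_WT (6.66 ± 0.93) and ILCP_WT (2.14 ± 3.23, SD). Among neighbours in this order, sEILP_WT, EILP_WT, ALP_WT and cEILP_WT overlapped in their libraries, and EILP_KO and ILCP_WT stood clear of the group next to them. Spi1 lies on chromosome 2 at 91082390 to 91115756 (plus strand, mm10), a protein-coding gene that no other annotated gene overlaps.

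**Figure D1:**
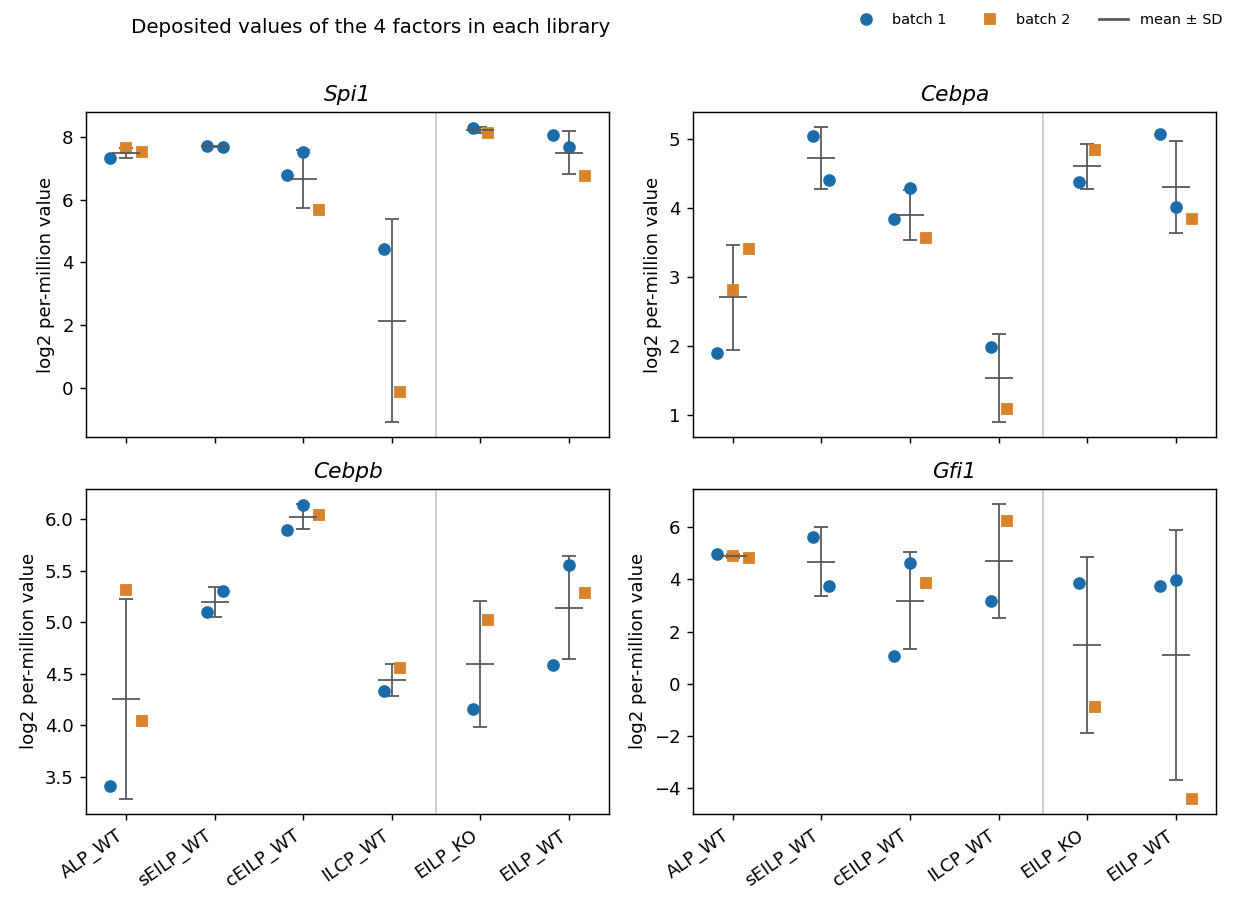
Deposited log2 value of Spi1, Cebpa, Cebpb and Gfi1 in each of the 15 libraries, by group, with circles for batch 1, squares for batch 2 and bars for the mean ± SD. Spi1 is at 4.43 and -0.14 in ILCP_WT and at 5.68 or higher in every other library, while Cebpb is highest in cEILP_WT at 5.90 to 6.14.

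The fall of Spi1 in ILCP_WT passed the threshold against each of the 3 groups it was set against. Spi1 fell by 4.30 log2 units in ILCP_WT against cEILP_WT (SE 0.77, 95% interval -5.98 to -2.62, limma adjusted p = 0.00586), which is 19.7-fold. It was the 1 member of 4 called in that comparison, in which 4.72% of all genes were called lower, 2.69% higher and 7.41% in either direction. In ILCP_WT against EILP_WT, Spi1 fell by 5.13 (SE 0.77, limma adjusted p = 0.00188), or 35.1-fold. In ILCP_WT against ALP_WT it fell by 5.57 (SE 0.77, limma adjusted p = 0.000705), or 47.4-fold, and was again the 1 member called there, where 7.86% of genes were lower, 5.56% higher and 13.4% called in all. These 3 comparisons share the ILCP_WT libraries. The size of the fall differed between batches. In batch 1 alone it was -2.72, -3.45 and -2.90 against cEILP_WT, EILP_WT and ALP_WT, and in batch 2 alone -5.82, -6.88 and -7.72. Without ILCP_WT replicate 2 the 3 differences were -2.45, -3.29 and -3.50, and without ILCP_WT replicate 1 -6.36, -7.20 and -7.41. Each of these fits holds 1 ILCP_WT library, so its test cannot measure the spread between the ILCP_WT libraries, and only the sizes are given. In a fit of the compared groups alone all 3 calls were lost, at adjusted p = 0.128, 0.168 and 0.0793. In bulk samples, fewer cells with Spi1 RNA and less Spi1 RNA per cell cannot be told apart.

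Before the ILCP stage, Spi1 did not pass the test in any comparison of wild-type groups. The difference was -0.43 in EILP_WT against ALP_WT (95% interval -1.97 to 1.10, limma adjusted p = 0.827), a comparison in which 3.21% of genes were called (1.71% higher and 1.5% lower) and 0 of 4 members. It was -0.67 in sEILP_WT against ALP_WT (-2.48 to 1.14, adjusted p = 0.92), where 0.803% of genes (0.493% higher and 0.31% lower) and 0 of 4 members were called. The sEILP_WT libraries were in fact above every ALP_WT library, and within batch 1 the difference was 0.37, so the sign depends on the batch term. In cEILP_WT against sEILP_WT it was -0.60 (-2.31 to 1.10, adjusted p = 1.00), with both sEILP_WT libraries above all 3 of cEILP_WT. In that comparison limma called 0% of genes, with 647 at an unadjusted p under 0.05, and 0 of 4 members were called. Each of these 3 intervals holds a change of 2-fold in either direction. In cEILP_WT against ALP_WT, added after the values were seen, Spi1 differed by -1.27 (-2.80 to 0.26, adjusted p = 0.436), with -0.17 in batch 1 and -1.90 in batch 2.

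The pair of C/EBP genes is shown with the 300 bases around each annotated start, because these relatives had their highest mean at different stages. The sequences are from RefSeq (GRCm38.p6, which is mm10), run from 250 bases before to 50 bases after the start, and have the ETS core GGAA, on either strand, and the TATA box TATAAA in capitals.
Cebpa, chr7:35119043-35119342, plus strand: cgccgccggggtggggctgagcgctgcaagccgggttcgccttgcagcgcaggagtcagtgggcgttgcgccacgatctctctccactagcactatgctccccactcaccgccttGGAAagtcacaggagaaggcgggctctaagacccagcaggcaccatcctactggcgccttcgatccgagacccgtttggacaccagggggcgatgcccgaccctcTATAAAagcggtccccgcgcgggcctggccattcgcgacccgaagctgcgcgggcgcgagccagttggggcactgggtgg
Cebpb, chr2:167688665-167688964, plus strand: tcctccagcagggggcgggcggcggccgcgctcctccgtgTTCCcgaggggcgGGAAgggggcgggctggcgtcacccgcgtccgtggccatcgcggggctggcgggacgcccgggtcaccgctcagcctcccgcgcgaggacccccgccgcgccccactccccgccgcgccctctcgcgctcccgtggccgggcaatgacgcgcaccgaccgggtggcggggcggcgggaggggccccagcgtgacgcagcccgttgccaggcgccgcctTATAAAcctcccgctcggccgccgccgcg
GGAA or its complement TTCC occurred once in the Cebpa window and at 2 places in the Cebpb window, and 96% of the 32851 promoter windows of the same length hold it, so its presence sets neither gene apart. TATAAA or TTTATA was in 1 place in each, against 13.6% of all windows. It began at base 221 of the Cebpa window, before the annotated start, and at base 272 of the Cebpb window, after it. A longer PU.1 motif (GAGGAAG or CTTCCTC, 13.6% of windows), a C/EBP motif (TTGCNNAA or TTNNGCAA, 10.8%) and a TCF/LEF motif (CTTTGA or TCAAAG, 16%) were in neither window. The first Gfi1 window in the same table held 1 C/EBP match and neither Gfi1 window is shown, since no Gfi1 difference passed the test. Guanine and cytosine made up 67.3% of the Cebpa window and 80.7% of the Cebpb window. No entry for Spi1 was in the promoter table.

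Cebpa had its highest values in the early ILC progenitors and its lowest in ILCP_WT, with ALP_WT between. Its values were 1.89, 2.81 and 3.40 for ALP_WT, 5.03 and 4.40 for sEILP_WT, 3.84, 4.29 and 3.56 for cEILP_WT, and 1.99 and 1.08 for ILCP_WT. Every sEILP_WT and cEILP_WT library was above every ALP_WT and ILCP_WT library, and ALP_WT and ILCP_WT overlapped. In the unsplit gate it was 4.37 and 4.83 in EILP_KO and 5.07, 4.0 and 3.84 in EILP_WT. The group means ran from sEILP_WT (4.72 ± 0.45) over EILP_KO (4.60 ± 0.33), EILP_WT (4.30 ± 0.67), cEILP_WT (3.90 ± 0.36) and ALP_WT (2.70 ± 0.76) to ILCP_WT (1.53 ± 0.64, SD). Of the neighbours in this order, cEILP_WT and ALP_WT did not overlap. In all 15 libraries Cebpa was above the lowest value.

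Cebpa passed the threshold in 1 comparison. In ILCP_WT against EILP_WT it fell by 2.76 (SE 0.75, 95% interval -4.39 to -1.12, limma adjusted p = 0.0476), or 6.76-fold. With Spi1 this made 2 of 4 members called lower there, where 4.34% of genes were called lower, 2.61% higher and 6.95% in either direction. This call lies just under the threshold and did not hold when 1 of the 5 libraries was removed, whichever it was, with differences of -3.29 to -2.28 and adjusted p = 0.0591 to 0.192. Within batch 1 and batch 2 the differences were close in size, -2.55 and -2.76 (adjusted p = 0.146 and 0.224). In ILCP_WT against cEILP_WT Cebpa was lower by a similar amount without passing (-2.35, SE 0.75, adjusted p = 0.0838). The libraries of the 2 groups did not overlap. In ILCP_WT against ALP_WT the difference was -1.18 (95% interval -2.82 to 0.46, adjusted p = 0.353), and it was 0.10 in batch 1 and -2.03 in batch 2.

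Toward the early ILC progenitors Cebpa was higher than in ALP_WT by estimates that missed the threshold. The difference was 1.97 in sEILP_WT against ALP_WT (SE 0.81, 95% interval 0.20 to 3.74, limma adjusted p = 0.468), with 2.82 in batch 1, and 1.17 without ALP_WT replicate 1. In EILP_WT against ALP_WT it was 1.58 (SE 0.69, 0.08 to 3.07, adjusted p = 0.274), with 2.64 in batch 1 and 0.73 in batch 2, and 0.90 without ALP_WT replicate 1. In cEILP_WT against sEILP_WT it was -0.80 (-2.46 to 0.87, adjusted p = 1.00), with both sEILP_WT libraries above the 3 of cEILP_WT. Comparisons of cEILP_WT and EILP_KO with ALP_WT were added after the values were seen. Cebpa was higher there by 1.17 (SE 0.69, adjusted p = 0.468) in cEILP_WT and by 1.88 (SE 0.75, adjusted p = 0.314) in EILP_KO, with no overlap between the libraries in either. The cEILP_WT estimate was 0.50 without ALP_WT replicate 1 and 0.46 in batch 2. In EILP_KO against ALP_WT 1.33% of genes were called (0.605% higher and 0.724% lower) and 0 of 4 members, with Spi1 at 0.50 (adjusted p = 0.881), Cebpb at 0.42 (0.83) and Gfi1 at -3.73 (0.547). These 4 Cebpa estimates against ALP_WT share the ALP_WT libraries. Cebpa lies on chromosome 7 at 35119293 to 35121928 (plus strand), and its first 313 bases overlap the antisense gene Gm45091 on the minus strand.

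**Figure D2:**
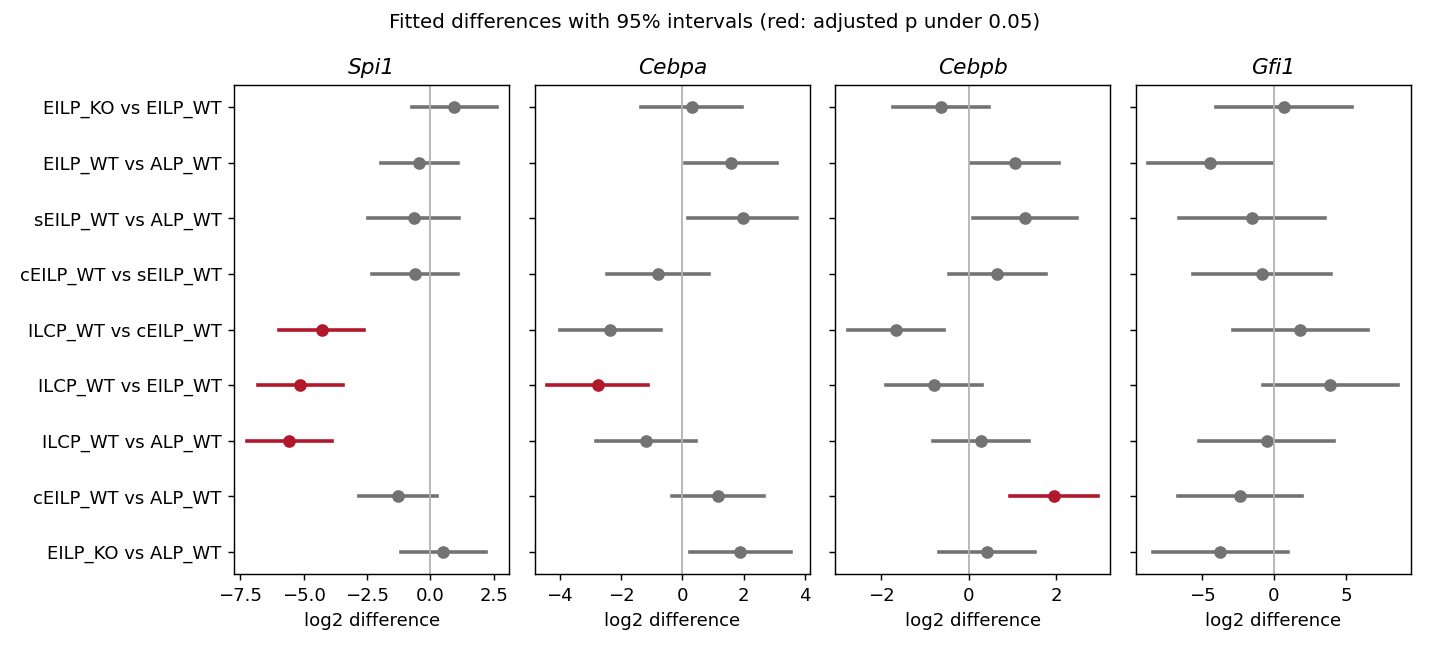
Fitted log2 difference (points) with 95% interval (lines) of each factor in each comparison, first-named group minus second, with adjusted p under 0.05 in red. Spi1 is red in the 3 comparisons of ILCP_WT, at -4.30, -5.13 and -5.57, Cebpa in 1 and Cebpb in 1, and the horizontal scales differ between panels. The Gfi1 intervals are the widest in every row.

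Cebpb had its highest values in cEILP_WT. Values of 3.41, 5.31 and 4.04 were found in ALP_WT, 5.10 and 5.30 for sEILP_WT, 5.90, 6.14 and 6.04 for cEILP_WT, and 4.33 and 4.55 for ILCP_WT. In the unsplit gate it was 4.16 and 5.02 in EILP_KO and 4.59, 5.56 and 5.28 in EILP_WT. All 3 cEILP_WT libraries lay above all 12 others, and they were within 0.24 log2 units of each other. The means ran from cEILP_WT (6.03 ± 0.12) over sEILP_WT (5.20 ± 0.14), EILP_WT (5.14 ± 0.50), EILP_KO (4.59 ± 0.61) and ILCP_WT (4.44 ± 0.16) to ALP_WT (4.25 ± 0.97, SD). Below cEILP_WT, each group overlapped with its neighbour in this order.

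In cEILP_WT against ALP_WT, one of the comparisons added after the values were seen, Cebpb rose by 1.94 (SE 0.46, 95% interval 0.94 to 2.94, limma adjusted p = 0.0359), or 3.84-fold. It was the 1 member of 4 called there, where 1.97% of genes were called higher, 2.03% lower and 4% in either direction. The rise was 2.60 in batch 1 and 1.37 in batch 2 (adjusted p = 0.0927 and 0.564), and the call was lost on leaving out any 1 of ALP_WT replicates 1 and 3 and cEILP_WT replicates 1, 2 and 3, with differences of 1.55 to 2.20 and adjusted p = 0.0806 to 0.185. Cebpb was lower in ILCP_WT than in cEILP_WT by an estimate that missed the threshold (-1.67, SE 0.50, adjusted p = 0.0684), close to equal in batch 1 (-1.68) and batch 2 (-1.49). It was higher in sEILP_WT and EILP_WT than in ALP_WT by 1.29 (SE 0.54, adjusted p = 0.487) and 1.06 (SE 0.46, adjusted p = 0.273), and by 0.82 and 0.67 without ALP_WT replicate 1. In cEILP_WT against sEILP_WT the difference was 0.66 (95% interval -0.46 to 1.77, adjusted p = 1.00). In ILCP_WT it differed by -0.79 from EILP_WT (-1.88 to 0.31, adjusted p = 0.392) and by 0.27 from ALP_WT (-0.82 to 1.37, adjusted p = 0.795).

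Cebpb lies on chromosome 2 at 167688915 to 167690418 (plus strand). The protein-coding gene Tmem189 on the minus strand overlaps 908 of its bases, and whether the counting used strand is not given in the sources used here, so reads there could belong to either gene. Tmem189 itself was 6.65 ± 0.03 in ILCP_WT, 6.21 ± 0.22 in cEILP_WT and 5.61 ± 0.42 in ALP_WT (SD). Tmem189 was highest in ILCP_WT, unlike Cebpb, but like Cebpb it was higher in cEILP_WT than in ALP_WT. The part of Tmem189 reads in the Cebpb values was not tested.

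Gfi1 was the most variable of the 4 factors. The libraries of ALP_WT had 4.97, 4.91 and 4.81, of sEILP_WT 5.61 and 3.75, of cEILP_WT 1.08, 4.62 and 3.86, and of ILCP_WT 3.15 and 6.25. In the unsplit gate it was 3.87 and -0.89 in EILP_KO and 3.75, 3.99 and -4.41 in EILP_WT, the last being the lowest value of that library. The 3 ALP_WT libraries lay within 0.16 log2 units, while every other group spread over 1.86 or more. ALP_WT was above every cEILP_WT, EILP_KO and EILP_WT library. All neighbours in the order ALP_WT (4.90 ± 0.08), ILCP_WT (4.70 ± 2.19), sEILP_WT (4.68 ± 1.32), cEILP_WT (3.19 ± 1.86), EILP_KO (1.49 ± 3.37) and EILP_WT (1.11 ± 4.78, SD) overlapped.

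Gfi1 was called in 0 of the 9 comparisons. The SE was 1.97 to 2.33 log2 units throughout, so changes of several-fold lie within each interval. The estimate was -4.43 in EILP_WT against ALP_WT (95% interval -8.72 to -0.13, limma adjusted p = 0.287). This size rests on EILP_WT replicate 3, where Gfi1 was at the lowest value. Without that library the difference was -1.09, and it was -1.10 in batch 1 and -9.27 in batch 2, which holds it. In ILCP_WT it was higher by 3.91 than in EILP_WT (-0.79 to 8.61, adjusted p = 0.319) and by 1.84 than in cEILP_WT (-2.87 to 6.54, adjusted p = 0.681). Without EILP_WT replicate 3 the difference from EILP_WT was 0.88, and without ILCP_WT replicate 2 the difference from cEILP_WT was -1.01. In cEILP_WT against ALP_WT it was -2.35 (-6.65 to 1.95, adjusted p = 0.651), in sEILP_WT against ALP_WT -1.50 (-6.57 to 3.57, adjusted p = 0.94) and in ILCP_WT against ALP_WT -0.52 (-5.22 to 4.19, adjusted p = 0.922). In cEILP_WT against sEILP_WT it was -0.85 (-5.63 to 3.93, adjusted p = 1.00). Gfi1 lies on chromosome 5 at 107716657 to 107726036 (minus strand). The transcript A430072P03Rik on the plus strand overlaps 880 of its bases, and it averaged 1.92 ± 0.72 in ILCP_WT against -2.57 ± 2.38 in ALP_WT. All EILP_KO and EILP_WT libraries had it at their lowest value.

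In the Tcf7-null cells, 0 of the 4 factors passed the threshold, in a comparison in which 0.103% of genes were called (0.0477% higher and 0.0557% lower). Spi1 was 8.28 and 8.14 in EILP_KO, the highest values of the gene in any library, against 8.06, 7.69 and 6.74 in EILP_WT. The difference was 0.93 (SE 0.77, 95% interval -0.75 to 2.61, limma adjusted p = 0.763), with 0.41 in batch 1 and 1.40 in batch 2. It was 1.67 without EILP_KO replicate 1 and 0.27 without EILP_KO replicate 2. Cebpa differed by 0.31 (-1.33 to 1.95, adjusted p = 0.966), with -0.17 in batch 1 and 0.99 in batch 2, and was 0.0058 without EILP_KO replicate 2 and 0.68 without EILP_WT replicate 1. Cebpb differed by -0.64 (-1.73 to 0.46, adjusted p = 0.75), with -0.91 in batch 1 and -0.26 in batch 2, and ran from -0.84 to -0.34 as 1 library was left out. Gfi1 differed by 0.70 (-4.01 to 5.40, adjusted p = 0.983), and by -2.34 without EILP_WT replicate 3.

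Known target genes of PU.1 and C/EBP alpha were next read in the same comparisons. Of a list of 23 such genes, 21 were in the table and tested. In ILCP_WT against EILP_WT 8 fell, 0 rose and 13 did not pass, where 4.34% of all genes were lower. The median of the 21 differences was -2.07, against -0.06 over all genes, and -1.96 when 5 genes that sat at the lowest value throughout one of the groups were set aside. Csf3r, the receptor of granulocyte colony-stimulating factor, was at the lowest value in both ILCP_WT libraries and 5.47 ± 1.16 in EILP_WT (SD, limma adjusted p = 7.28e-06). Cd68, a lysosomal protein of macrophages, was likewise at the lowest value in ILCP_WT and 5.02 ± 1.86 in EILP_WT (adjusted p = 7.29e-05). Among genes for cytosolic subunits of the phagocyte oxidase, Ncf1 fell by 4.26 (SE 0.31) and Ncf4 fell by 1.08 (SE 0.28). Itgam, a myeloid integrin chain, and Il6ra, the interleukin-6 receptor chain, fell by 6.63 (SE 1.5) and 6.25 (SE 1.42). In ILCP_WT (SD 6.24 and 4.86) both were at the lowest value in replicate 1 and at 4.27 and 2.32 in replicate 2. Spi1 had the opposite order, with 4.43 in replicate 1 and -0.14 in replicate 2. Csf1r and Cybb were likewise at the lowest value in replicate 1 only, and Csf2ra and Csf2rb in replicate 2 only. The neutrophil protease gene Prtn3 fell by 2.96 (SE 0.62). Of the granule genes, Mpo was 7.31 ± 2.62 in ILCP_WT and 9.87 ± 1.69 in EILP_WT (adjusted p = 0.13), while Elane averaged 5.05 ± 2.84 in ILCP_WT and 4.45 ± 1.42 in EILP_WT (adjusted p = 0.762).

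Against the other groups the target list was lower in ILCP_WT with counts that varied. In ILCP_WT against ALP_WT 7 fell, 1 rose and 13 did not pass, with a median of -3.98 (-2.44 when 5 such genes were set aside) against -0.09 over all genes. In ILCP_WT against cEILP_WT 3 fell (Csf3r, Cd68 and Ncf1), 1 rose and 17 did not pass, with a median of -2.74 (-1.86 when 5 such genes were set aside) against -0.07. The gene that rose in both was Itgb2, the shared integrin beta chain of leukocytes, by 2.24 (SE 0.34, limma adjusted p = 0.00136) against ALP_WT and by 1.71 (SE 0.34, adjusted p = 0.0108) against cEILP_WT. The count of falls against EILP_WT was 5 without EILP_WT replicate 1, and against ALP_WT it was 4 without ALP_WT replicate 2. In a fit of the compared groups alone the counts were 0 against cEILP_WT, 0 against EILP_WT and 4 against ALP_WT.

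Before the ILCP stage the target list gave calls in 1 comparison. In EILP_WT against ALP_WT Itgb2 rose and Lyz2, the lysozyme gene of myeloid cells, fell, and 19 of 21 did not pass, where 3.21% of all genes were called. In sEILP_WT against ALP_WT 0 of 21 passed by limma, with 3 at an unadjusted p under 0.05 (1148 of 12572 genes in all), and the median was 0.09. In cEILP_WT against sEILP_WT 0 passed, with 4 at an unadjusted p under 0.05 (647 genes in all) and a median of -0.70. In EILP_KO against EILP_WT 0 of 21 passed by limma, with 6 at an unadjusted p under 0.05 (4 higher and 2 lower, and 1094 genes in all), 16 of 21 were positive and the median was 0.89, against 0.04 and 52.8% positive over all genes. The mean of Elane was 8.55 ± 1.56 in EILP_KO against 4.45 ± 1.42 in EILP_WT (adjusted p = 0.377), and that of Mpo 11.78 ± 0.13 in EILP_KO against 9.87 ± 1.69 in EILP_WT (adjusted p = 0.548).

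**Figure D3:**
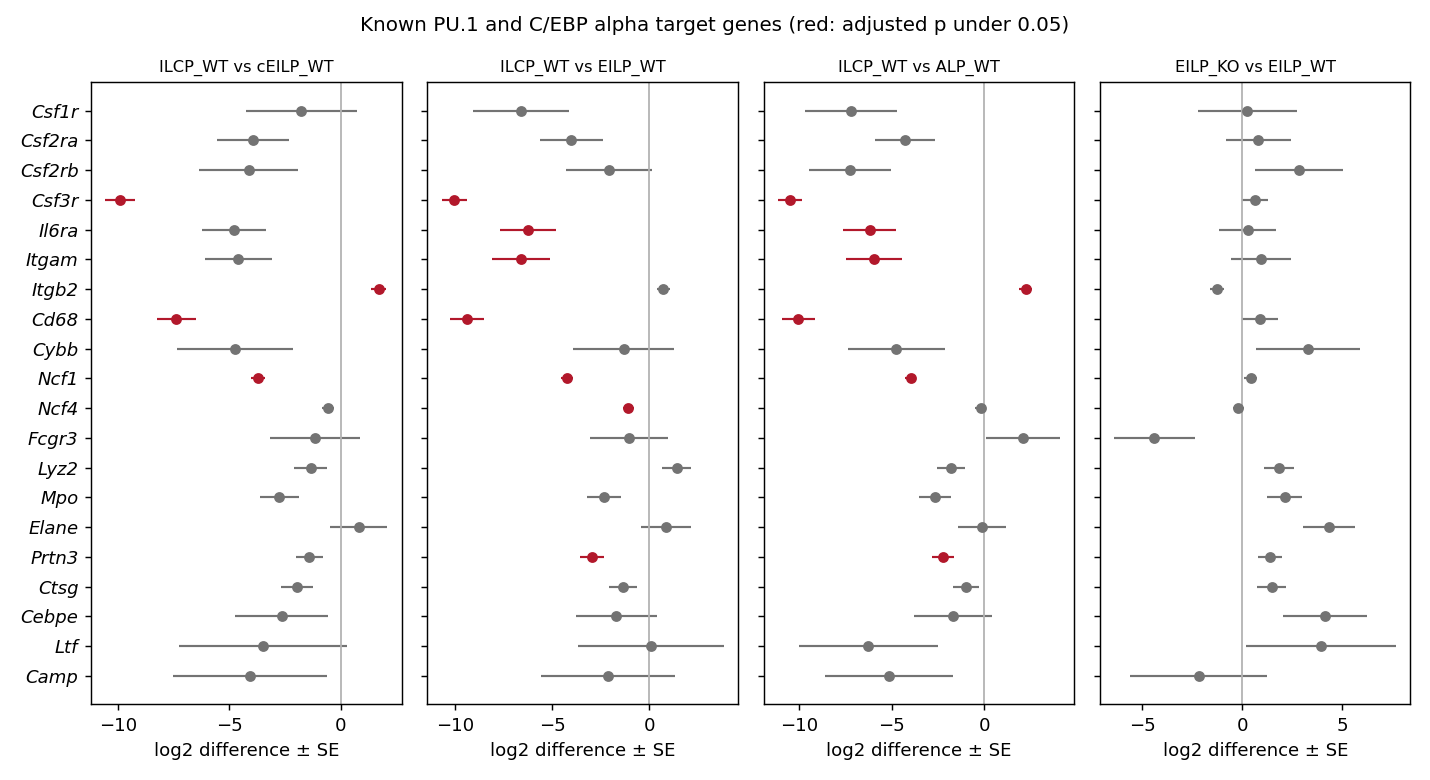
Fitted log2 difference ± SE of 20 of the 21 measured target genes of PU.1 and C/EBP alpha in 4 comparisons, first-named group minus second, with adjusted p under 0.05 in red. Csf3r, Cd68 and Ncf1 are red and negative in all 3 comparisons of ILCP_WT, and no gene is red in EILP_KO vs EILP_WT.

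Of 16 ETS, C/EBP and Gfi1 family relatives, 1 rose and 2 fell in each of the 3 comparisons of ILCP_WT, in which 7.41%, 6.95% and 13.4% of all genes were called against cEILP_WT, EILP_WT and ALP_WT. Fli1, an ETS factor of blood and endothelium, rose by 1.49 against cEILP_WT (SE 0.29, limma adjusted p = 0.0104), 1.59 against EILP_WT and 1.62 against ALP_WT. Etv6, an ETS repressor, fell by 0.64 (SE 0.15, adjusted p = 0.0254), 0.83 and 0.68. Gfi1b, the erythroid and megakaryocytic relative of Gfi1, was -2.35 ± 3.12 in ILCP_WT, 6.58 ± 0.42 in cEILP_WT and 4.97 ± 0.35 in EILP_WT (SD, adjusted p = 0.000326 and 0.00104). In the other 6 comparisons 0 of the 16 were called by limma, with 0 to 3 at an unadjusted p under 0.05. The median of the list lay between -0.51 and 0.27 in all 9 comparisons.

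Of 20 tested factors that act with or against PU.1 and C/EBP alpha in blood lineages, Irf8 and Myb were called in each of the 3 comparisons of ILCP_WT. Irf8, the PU.1 partner of monocytes and dendritic cells, fell by 3.65 against EILP_WT (SE 0.35, limma adjusted p = 7.69e-05) and fell by 4.11 against ALP_WT (SE 0.35, adjusted p = 1.99e-05). Myb, a progenitor factor, fell by 2.57 against cEILP_WT (SE 0.20, adjusted p = 2.34e-05) and fell by 2.79 against ALP_WT (SE 0.20, adjusted p = 6.40e-06). Id2 and Gata3, which act on the lymphoid side, rose in sEILP_WT, cEILP_WT and EILP_WT against ALP_WT, Id2 by 4.04, 4.64 and 5.39 and Gata3 by 5.29, 6.53 and 5.92. In sEILP_WT against ALP_WT the list had 2 rises and 0 falls, in cEILP_WT 3 and 1 and in EILP_WT 3 and 0, of 20 tested, where 0.803%, 4% and 3.21% of all genes were called. In EILP_KO against EILP_WT 0 of 20 were called by limma, with 3 at an unadjusted p under 0.05, and the median was -0.13.

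Of 11 tested corepressors and partners of Gfi1, Ajuba rose and Cbfa2t3 fell in each of the 3 comparisons of ILCP_WT, and Kdm1a, the histone demethylase that Gfi1 recruits, fell by 0.69 against cEILP_WT (SE 0.18, limma adjusted p = 0.0408). These are 3, 2 and 2 of 11 against cEILP_WT, EILP_WT and ALP_WT, where 7.41%, 6.95% and 13.4% of all genes were called. Cbfa2t3, a corepressor of the ETO family, fell by 3.08 against EILP_WT (SE 0.35, adjusted p = 0.000302). Ajuba, a LIM protein, was 3.08 ± 0.51 in ILCP_WT, while all EILP_WT and cEILP_WT libraries had it at their lowest value. In the other 6 comparisons 0 of the 11 were called by limma, with 1 to 4 at an unadjusted p under 0.05.

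The genes most like each factor were sought among 6162 tested genes with a mean above the median, by Pearson's r over all 15 libraries, which is a description because the libraries share their groups. For Spi1 they were Alox5ap, Ckap4, Themis2, Tm6sf1 and Slc30a5 (r = 0.983 to 0.962). Over the 13 libraries without ILCP_WT these 5 had r = 0.925, 0.836, 0.581, 0.764 and 0.724. Among these 5, Alox5ap, which encodes a protein of leukotriene synthesis, thus had the highest r also without that group. The other genes were not ranked over the 13 libraries. Alox5ap averaged -0.36 in ILCP_WT and 6.93 in EILP_WT. For Cebpa they were Slc8b1, Rab27a, Rogdi, Fabp5 and Egln3 (r = 0.93 to 0.887), for Cebpb Rp2h, Cttn, Stat5a, Patz1 and Prkca (r = 0.905 to 0.825), and for Gfi1 Jak3, Ugp2, Ndufs5, Cbx2 and Dync1i2 (r = 0.89 to 0.855). Cttn, the actin-binding cortactin gene, averaged 8.66 in cEILP_WT, 8.15 in sEILP_WT and 5.54 in ALP_WT. Among the members themselves, Spi1 and Cebpa had r = 0.749 over 15 libraries and 0.386 over 13 without ILCP_WT. Spi1 and Cebpb had r = 0.09 over 15 and -0.447 over 13. Cebpa and Cebpb had r = 0.397 over 15 and 0.314 over 13, and Gfi1 had r between -0.285 and -0.205 with the other 3 factors over 15. Over the 13 without ILCP_WT, Gfi1 had r = 0.208 with Spi1, a turned sign, -0.162 with Cebpa and -0.196 with Cebpb.

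Marker lists of other cell types were read in the same libraries. All 12 genes of a neutrophil and granulocyte list were in the table, and 6 of them are also on the target list. Their summed linear level in replicate order was 1511, 688 and 1700 in ALP_WT and 3335 and 3134 in sEILP_WT. At the later stages it was 1083, 2403 and 2035 in cEILP_WT and 867 and 90.0 in ILCP_WT. In the unsplit gate the sum was 3985 and 5264 in EILP_KO, above every other library, and 3785, 1135 and 434 in EILP_WT. Mpo alone made up most of the sum in EILP_KO and sEILP_WT, at 11.70 to 11.87 and 11.34 to 11.43 (log2). Within sEILP_WT, ILCP_WT and EILP_WT the libraries had the same order in this sum, in Spi1 and in Cebpa, but not within ALP_WT and cEILP_WT, nor for Spi1 within EILP_KO. Between ALP_WT and sEILP_WT the sums did not overlap, while the Spi1 means were 7.70 in sEILP_WT and 7.49 in ALP_WT. Their part in the Spi1 and Cebpa results was not tested. Among the 6 granulocyte genes Ngp, Ltf, Camp, Lcn2, Mmp8 and Retnlg, those at the lowest value in every library were Ngp, Ltf, Camp, Lcn2 and Retnlg in ILCP_WT, Ngp, Ltf, Lcn2 and Retnlg in sEILP_WT, Camp, Mmp8 and Retnlg in EILP_KO, Ltf and Lcn2 in EILP_WT, and none in ALP_WT and cEILP_WT. Mmp8, a neutrophil collagenase gene, was 4.77 ± 1.95 in ILCP_WT and 2.80 ± 0.43 in sEILP_WT, against -1.92 ± 4.68 in EILP_WT.

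A monocyte and macrophage list held 12 gene symbols, of which Emr1 and Adgre1 name the same gene, and 8 were in the table. Their sum was 1325 to 1405 in ILCP_WT, against 248 to 767 in cEILP_WT, 340 to 733 in EILP_WT and 530 to 639 in ALP_WT, while Cd68 and Emr1 were at the lowest value in both ILCP_WT libraries. The chemokine receptor gene Ccr2 was 10.21 ± 0.12 (log2) in ILCP_WT and 6.32 ± 0.75 in cEILP_WT. This 1 gene made up most of the ILCP_WT sum, which therefore does not describe the list as a whole. Csf1r was at the lowest value in 1 of the 2 ILCP_WT libraries. All 10 dendritic cell genes were in the table, with sums of 227 to 272 in ILCP_WT, 493 to 1294 in cEILP_WT, 924 to 2342 in EILP_WT and 2825 to 4070 in ALP_WT. Flt3 and Irf8 made up most of the ALP_WT sum (10.68 and 10.21, log2), and Flt3 defines sort gates, so this order is partly set by the sort. Both were called lower in ILCP_WT against each of these groups. Xcr1 was called higher against each, and Batf3 against cEILP_WT and ALP_WT. Siglech, Bst2 and Tcf4 were called lower against ALP_WT. The 6 of 10 measured B lineage genes summed to 463 to 571 in ILCP_WT and 1569 to 2547 in ALP_WT, and the 8 of 9 erythroid and megakaryocyte genes to 224 and 1523 in EILP_KO and 128 to 385 in EILP_WT. Ighm made up most of the ALP_WT B lineage sum (mean 10.74, log2). Most of the sum of 1523 in EILP_KO was Car1, at 9.995 (log2). The 7 of 8 measured mast cell and basophil genes summed to 15.3 to 51.8 in ALP_WT, 1095 to 1142 in sEILP_WT and 1126 to 2021 in cEILP_WT. Their sum was 90.1 to 791 in ILCP_WT, 418 to 518 in EILP_KO and 581 to 981 in EILP_WT. Cpa3 made up most of the sEILP_WT sum, with a mean of 9.94 (log2) there and 10.20 in cEILP_WT. The part of these lists in the results was not tested.

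**Figure D4:**
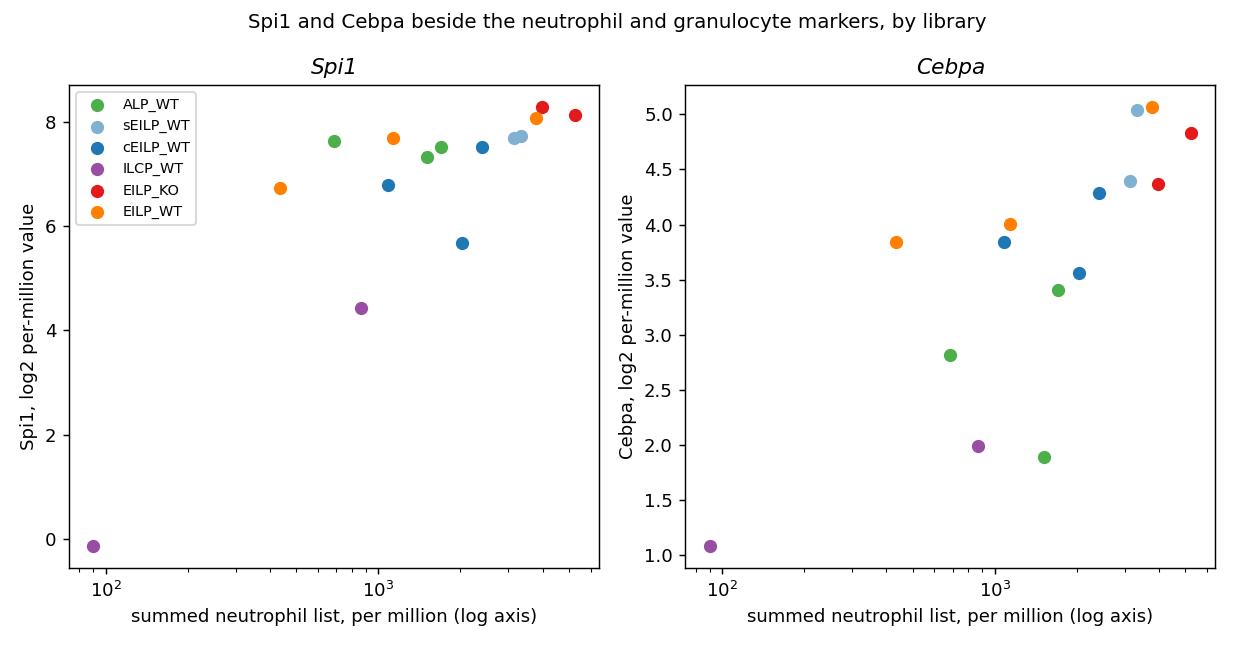
Level of Spi1 and Cebpa (deposited log2 value) against the summed level of 12 neutrophil and granulocyte genes (linear level of a library total of at most 999292, log axis), 1 point per library, coloured by group. ILCP_WT has the lowest sum at 90.0 with the lowest Spi1, EILP_KO the highest sums at 3985 and 5264, and the ALP_WT libraries lie lower in Cebpa than EILP_WT libraries with similar sums. Mpo alone makes up most of the sum in EILP_KO and sEILP_WT.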

How the data were processed

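The authors deposited 1 table of log2 values for 12798 genes in 15 libraries, with 24 further columns without name or values. Read from the values, these log2 levels have nearly equal library totals and equal quartiles, as if quantile-normalized across libraries; no counts were analysed here, so depth is unknown and no detection limit is given. Per the labels' protocols, cDNA came from a SMARTer kit for low input and was tagmented with Nextera XT. Build mm10, limma, RSEM 1.2.23, STAR 2.5.2b and bcl2fastq 2.17 are named in the submitters' processing notes; the annotation and the use of strand are not given in the sources used here.

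The 12572 genes that reached a log2 value of 0 in 2 or more libraries were fitted with limma 3.58.1 in R 4.3.3, with group and batch as terms (9 libraries in batch 1 and 6 in batch 2) and an intensity trend, after a test on simulated data. P-values were adjusted by Benjamini-Hochberg over all genes in each comparison. The named genes are the members, list members that passed or are set beside a member, and the 5 genes most like each member, leaving out predicted, immunoglobulin and T cell receptor genes. Members, lists and tests were chosen with earlier results of these data known. Gene positions are from GENCODE M21, promoters from RefSeq. Alternatives covered filters, scaling, the batch term, the variance model, batches and single libraries. Comparisons of cEILP_WT and EILP_KO with ALP_WT, and counts of target genes under the alternatives, were added after the values were seen. Values of some list genes are not reported here.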

Additional observations from a re-analysis of the deposited data

How the results depend on the processing

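Of 684 values of the 4 factors under alternatives, 630 kept direction and side of the threshold, 30 lost it, 1 gained it and 23 changed sign. The cause of these changes was not tested. Fits that left 1 library in a group, among them those of a single batch, do not measure the spread within that group. Read depth is unknown, so what it limits cannot be stated.

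Fits of the compared groups alone, which hold fewer libraries, gave Spi1 -4.05, -4.92 and -5.65 in ILCP_WT vs cEILP_WT, EILP_WT and ALP_WT (limma adjusted p = 0.128, 0.168 and 0.0793), Cebpa -2.64 in ILCP_WT vs EILP_WT and Cebpb 1.99 in cEILP_WT vs ALP_WT, none past the threshold. Batch 2 alone gave Spi1 -5.82, -6.88 and -7.72, Cebpa -2.76 and Cebpb 1.37 there, and batch 1 alone Cebpa -2.55 and Cebpb 2.60, again not past it.

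The replicate numbers did not pair the samples, since the correlation of deviations was -0.0537 to 0.0486. With a replicate block Spi1 in ILCP_WT vs cEILP_WT was -4.04 (adjusted p = 0.0591), Cebpa in ILCP_WT vs EILP_WT -2.82 and Cebpb in cEILP_WT vs ALP_WT 1.96, all without a call. Repeated quantile normalization (-2.75), cyclic loess (-2.84), robust variance (-2.76) and library weights (-2.86) also lost Cebpa in ILCP_WT vs EILP_WT. Without a batch term Cebpb in cEILP_WT vs ALP_WT was 1.77, not past the threshold. Without an intensity trend Cebpa in ILCP_WT vs cEILP_WT passed (-2.35, adjusted p = 0.0485).

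Signs turned for values that did not pass. Spi1 in EILP_WT vs ALP_WT was 0.0039 without a batch term and 0.55 in batch 1, and in sEILP_WT vs ALP_WT 0.21 without a batch term, 0.37 in a fit of the compared groups alone and 0.37 in batch 1. Cebpa was -0.17 in EILP_KO vs EILP_WT and 0.10 in ILCP_WT vs ALP_WT in batch 1. Cebpb in ILCP_WT vs ALP_WT was -0.12 in batch 2. Gfi1 in EILP_KO vs EILP_WT was -0.52 with values under 0 set to 0, -0.0045 in batch 1 and -0.45 with library weights. It was -0.72 in ILCP_WT vs EILP_WT in batch 1, and in ILCP_WT vs ALP_WT 0.014 for the compared groups alone and 1.39 in batch 2.

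Leaving out 1 library gave -3.29 to -2.28 for Cebpa in ILCP_WT vs EILP_WT and 1.55 to 2.36 for Cebpb in cEILP_WT vs ALP_WT. It gave -2.34 to 2.31 for Gfi1 in EILP_KO vs EILP_WT, -1.83 to 0.76 for Gfi1 in cEILP_WT vs sEILP_WT, -1.01 to 5.01 for Gfi1 in ILCP_WT vs cEILP_WT, -0.084 to 0.72 for Cebpb in ILCP_WT vs ALP_WT, -3.69 to 2.33 for Gfi1 in ILCP_WT vs ALP_WT and -0.24 to 1.16 for Spi1 in EILP_KO vs ALP_WT, which turned sign in part.

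Counts of called genes over all genes moved by more than 1.5 times under part of the alternatives. In ILCP_WT vs EILP_WT the count was 874, with 0 to 1046 under other settings and 643 to 787 without 1 library. In ILCP_WT vs ALP_WT it was 1687, with 0 to 1861 and 1057 to 1312, and in ILCP_WT vs cEILP_WT 932, with 0 to 1140 and 509 to 769. In EILP_KO vs EILP_WT it was 13, with 0 to 19 and 2 to 54, in EILP_WT vs ALP_WT 404, with 0 to 468 and 177 to 380, and in sEILP_WT vs ALP_WT 101, with 0 to 153 and 20 to 110. In cEILP_WT vs ALP_WT it was 503, with 0 to 702 and 256 to 350, in EILP_KO vs ALP_WT 167, with 0 to 219 and 96 to 159, and in cEILP_WT vs sEILP_WT 0 with 0 to 9 and 0 to 7. The count of target genes lower was 8 in ILCP_WT vs EILP_WT, with 0 to 8 under other settings and 5 to 9 without 1 library. It was 7 in ILCP_WT vs ALP_WT, with 0 to 10 and 4 to 9, and 3 in ILCP_WT vs cEILP_WT, with 0 to 5 and 3 to 6. Counts of 0 called genes came from batch 2 alone wherever it could be fitted, and from fits of the compared groups alone except in the comparisons of EILP_WT, cEILP_WT and ILCP_WT with ALP_WT. In EILP_KO vs EILP_WT the replicate block also gave 0.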
